A study of Mus musculus with 6 samples.

Results

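The genes described here lie on distal mouse chromosome 15, in the stretch that ends at Ppp1r1a, the gene deleted in the mice of this study. They are 60 named genes chosen by position, for the most part between Slc38a1 and Ppp1r1a, after earlier results of the same 6 arrays had shown low p-values gathering toward that end of the chromosome. The wild type against knockout contrast therefore took part in choosing them, and their differences are given below as a description, with no p-value for any member; counts of limma calls stand beside the share over the whole table and support nothing. Of the 60 members, 56 had a probe set assigned to them alone, and the others, Tuba1b, Tuba1c, Zfp641 and Atf1, were matched by none; 8 probe sets that carry several symbols including a member were not used. Those 56 had 132 probe sets, of which 103 lay above the level that 40% of probe sets fall below and entered the comparison. Each of the 56 had at least 1 tested probe set, out of 12502 genes with one on the array. One member, Arid2, lies just outside the named stretch, beyond Slc38a1.

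Total RNA of the hippocampus was hybridised to 1 Affymetrix array per sample, 3 from wild-type mice and 3 from inhibitor-1 knockout mice. Inhibitor-1, the product of Ppp1r1a, blocks protein phosphatase 1 after protein kinase A has phosphorylated it. The labels give genotype, tissue and a replicate number. They hold nothing on strain, age, sex, the targeting construct or the number of animals behind an array. The standard errors below therefore cover only how these 6 samples vary, and that variation may be technical. They are moderated by limma toward probe sets of like intensity, so they are not the spread of a probe set's own values alone.

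As background, a targeted allele made in embryonic stem cells is passed on together with the DNA that flanks it. After crossing to another strain, genes near the target can therefore still carry the sequence of the stem cell strain. An array of this kind reads a transcript through sets of short probes, usually near its 3' end, and a gene can have several probe sets that sit on different parts of its transcripts. A change in the amount of a whole transcript moves all of them, whereas a base change under some probes, or a change in splicing or in the poly(A) site, moves only those that touch it. Probe set names ending in _s_at, _x_at or _a_at mark sets whose probes match several transcripts, match other sequences in part, or match several variants of one gene.

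Ppp1r1a itself, read by probe set 1422605_at, had intensities of 9061, 8370 and 10345 in the wild-type arrays and 272, 249 and 347 in the knockout arrays, as the labels say. Defining markers of hippocampal neurons were present: all 10 of the list, such as Prox1 of granule neurons and Wfs1 of CA1 neurons, were tested. Their summed intensity ran from 171846 to 183526 in the knockout arrays and from 186579 to 199610 in the wild-type arrays, 2 ranges that do not overlap. For 7 oligodendrocyte markers the summed level was likewise below wild type (324009 to 346623) on every knockout array (299286 to 309419). Markers of choroid plexus and ependyma were above wild type in 9 of 11 cases, with summed levels that overlap (202156 to 285892 in wild type, 225472 to 275952 in knockout). Those of meninges and fibroblasts were above it in 9 of 9, also with overlap (30248 to 38315 against 34667 to 50398). The 6 astrocyte markers (203205 to 213195 against 209598 to 215292) and the 6 microglia markers (51694 to 53806 against 51429 to 55948) overlapped, and 1 of 3 red blood cell markers, Alas2, was tested (333 to 663 against 780 to 1099). No tested marker was at 0. Signal at the 3' end of beta-actin over that at its 5' end, a sign of RNA quality, was 1.18 to 1.21 on knockout arrays and 1.24 to 1.30 on wild-type arrays. The same ratio for Gapdh overlapped, at 0.82 to 0.83 on knockout arrays and 0.81 to 0.88 on wild-type arrays. The part of these markers and of RNA quality in the member differences was not tested. In tissue RNA, fewer cells of a type and less RNA per cell cannot be told apart.

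Over all members, changes in both directions occurred, and the balance depended on how probe sets were counted. With each gene read by its brightest tested probe set, 29 members had a log2 change below 0 and 27 above 0, and the median was -0.0055 with quartiles of -0.14 and 0.083. Over all 12502 genes the median was 0.00029 with quartiles of -0.10 and 0.11, and 49.9% were lower. Over single probe sets, 60 of the 103 had a change below 0 (58.3%) and 43 above, with a median of -0.03 against 0.004 over all tested probe sets. None of the 103 member probe sets passed a limma adjusted p of 0.05 in either direction, where 0.0111% of all tested probe sets were called lower and 0% higher. At an unadjusted p of 0.05 in limma, 11 were lower, where 2.21% of all probe sets were, and 7 higher, where 2.16% were. For 13 member probe sets all 3 knockout arrays lay below all 3 wild-type arrays (12.6% of 103, where 4.91% of all tested probe sets did so), and for 8 they all lay above (7.77%, where 4.97% did). Since the contrast helped choose the genes, these shares are not read as evidence. The 21 probe sets belong to 17 members, 10 with a lower one and 8 with a higher one, Senp1 having both. The other 39 tested members had none. The share of all genes with any such probe set was not counted. A gene with more tested probe sets reaches it more easily, so the shares over probe sets are no measure for these gene counts. For 3 of the 21 (Tarbp2, Senp1 and Cers5) the mean of 1 group lay under the filter, so that these probe sets were tested only because the other group was brighter.

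**Figure D1:**
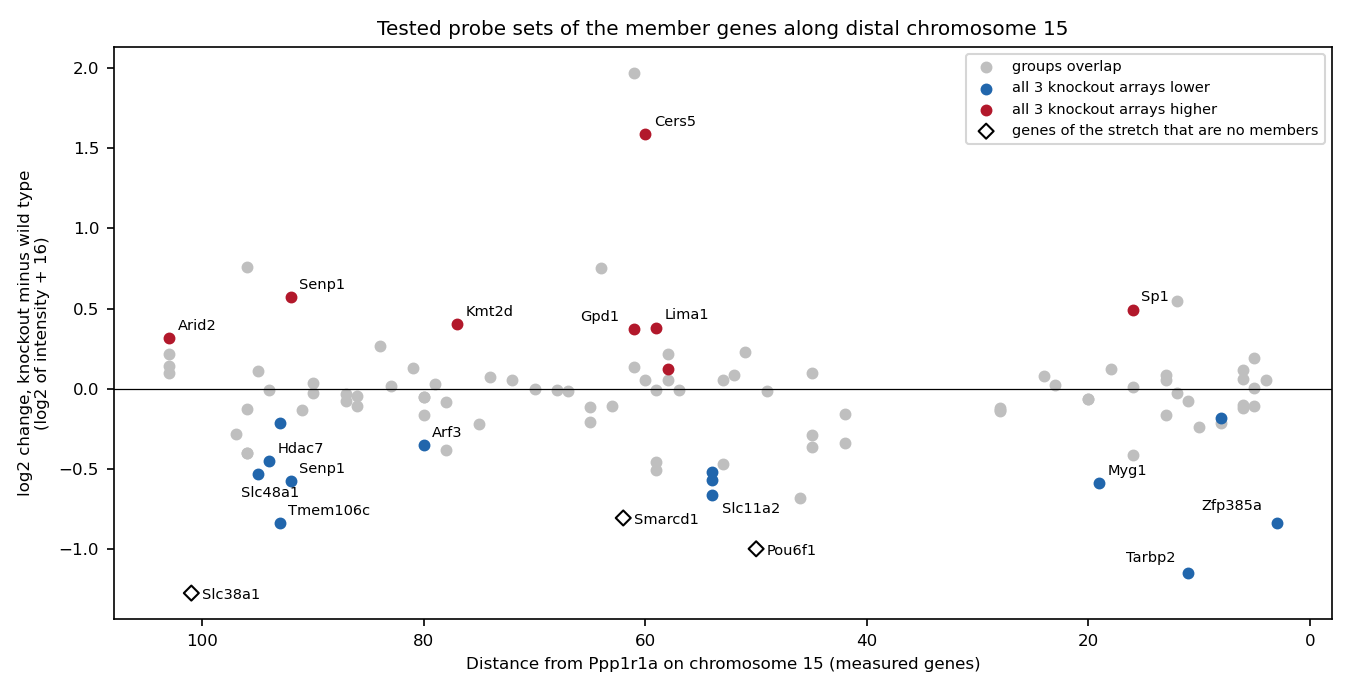
Log2 change (knockout minus wild type, on log2 of intensity + 16) of the 103 tested member probe sets against their distance from Ppp1r1a in measured genes, with Ppp1r1a at the right end. Blue and red points are probe sets whose 3 knockout arrays all lie below or above the 3 wild-type arrays, and grey points overlap. Open diamonds are 3 genes that are no members, Slc38a1, Pou6f1 and Smarcd1, each drawn only at its probe set lower without overlap. Ppp1r1a itself is not drawn. Lower and higher members are interspersed, and most lie near 0.

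Of the 10 members that encode membrane proteins, 8 had a change below 0 (median -0.18 by the brightest probe set, where 49.9% of all genes were below 0). Of their 19 tested probe sets, 6 were lower without overlap and 0 higher, where 4.91% and 4.97% of all tested probe sets were; 3 of the 6 belong to Slc11a2 and 2 to Tmem106c. Slc11a2, which encodes the divalent metal transporter DMT1 that carries iron across membranes, was the member with the most probe sets lower without overlap. Its brightest probe set, 1452078_a_at, read 2058, 2598 and 1965 in wild type and 1479, 1346 and 1771 in knockout. Probe set 1426441_at read 1623, 1779 and 1800 against 1384, 1318 and 867, and 1417584_at read 985, 781 and 803 against 412, 528 and 697. Every knockout array was thus below every wild-type array at all 3, with log2 changes of -0.52 (SE 0.18), -0.57 (SE 0.21) and -0.66 (SE 0.28), which is a mean intensity 1.57 times higher in wild type for the last of them. Its remaining dim probe set, which was not tested, overlapped between the groups (229 to 621 in wild type, 231 to 390 in knockout).

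Tmem106c, a transmembrane protein gene, was lower at both of its probe sets, but to unequal extents. At 1434783_at the wild-type arrays read 2715, 3494 and 3518 (3242 ± 457, SD, n = 3) and the knockout arrays 1937, 1779 and 1684 (1800 ± 128, SD, n = 3), a log2 change of -0.84 (SE 0.15). At 1434784_s_at they read 4558, 5008 and 4702 against 3920, 4136 and 4265, a log2 change of -0.21 (SE 0.10). Neither probe set overlapped between the groups. Slc48a1, a heme transporter, differed at 1 of 2: probe set 1450410_a_at read 3965, 3797 and 3330 in wild type and 2382, 2630 and 2640 in knockout (log2 change -0.53, SE 0.12), while the brighter 1450409_a_at had a log2 change of 0.11 with overlapping groups. The other 7 membrane members had no separated probe set, and their 12 tested probe sets ranged from -0.47 to 0.10. They include the acid-sensing channel Asic1 (-0.11), the activin receptor Acvr1b (-0.34 and -0.16), the bicarbonate exchanger Slc4a8 (-0.36, -0.29 and 0.10), the Fas inhibitor Faim2 (-0.20 and -0.11), Lmbr1l (-0.22) and Letmd1 (-0.47 and 0.06). Tmbim6, an inhibitor of cell death in the endoplasmic reticulum, read 19139, 19854 and 18530 in wild type and 18403, 19775 and 18835 in knockout, values that interleave (log2 change -0.01, SE 0.07).

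Among 13 tested transcription factors and chromatin regulators, 5 had a change below 0 and 8 above (median 0.012). Of their 24 tested probe sets, 3 were lower and 3 higher without overlap, where 4.91% and 4.97% of all tested probe sets were. Zfp385a, a zinc finger gene known as a p53 cofactor, is the member nearest to Ppp1r1a, 3 measured genes away. Its only probe set, 1418865_at, read 1733, 1581 and 1760 in wild type (1691 ± 96.2, SD, n = 3) and 910, 870 and 1052 in knockout (944 ± 95.5, SD, n = 3), so that its mean was 1.79 times higher in wild type (log2 change -0.83, SE 0.18). With 1 probe set, its agreement could not be checked. Hdac7, a class IIa histone deacetylase, read 1306, 1282 and 1510 against 946, 1068 and 966 at 1420812_at (log2 change -0.45, SE 0.19). Its other probe set, 1420813_at, read 2357, 1602 and 2203 against 1269, 2092 and 3065, with a log2 change of -0.0099 and a knockout range that holds the wild-type one. Calcoco1, a nuclear receptor coactivator, was lower by little at 1428513_at (2882, 2813 and 2867 against 2579, 2508 and 2468). Its dim 1443121_at had a log2 change of -0.21 (SE 0.38), with overlap.

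Kmt2d, Sp1 and Arid2 each had a probe set that lay higher in every knockout array. Kmt2d, a histone H3 lysine methyltransferase, read 7638, 6666 and 6931 in wild type and 7712, 10846 and 9751 in knockout (log2 change 0.40, SE 0.12). Its lowest knockout array is close to the highest wild-type array. A dim probe set of Kmt2d, 1427555_at, was not tested and overlapped, with a log2 change of 0.06. Sp1, which binds GC boxes in promoters, read 2432, 2809 and 2753 against 3455, 3317 and 4606 at 1418180_at (log2 change 0.49, SE 0.15). The about equally bright 1454852_at of Sp1 had a log2 change of 0.01, and the dim 1448994_at one of -0.41 (SE 0.31). Arid2, a subunit of the PBAF chromatin remodeller, read 6763, 6142 and 6856 against 8011, 7847 and 8729 at its brightest probe set (log2 change 0.31, SE 0.09), and its other 3 had changes of 0.10 to 0.22, all of the same sign with overlapping groups. The 7 chromatin and transcription members without a separated probe set ranged from -0.23 to 0.23 over 11 probe sets. They are Kansl2 and Mcrs1 of the NSL acetyltransferase complex, the CRE-binding factor Atf7 (-0.23), Tfcp2 (0.23), Csrnp2, Zfp740 and the heterochromatin protein gene Cbx5. At its brightest probe set Cbx5 read 14014, 12979 and 14893 in wild type and 14656, 14931 and 14012 in knockout, overlapping.

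Enzymes of metabolism comprised 7 members, 4 with a change below 0 and 3 above (median -0.08). Among their 11 tested probe sets, 1 was lower and 2 higher without overlap, where 4.91% and 4.97% of all tested probe sets were. Myg1, which encodes an exonuclease found in nucleus and mitochondria, read 4249, 3806 and 4489 in wild type and 2381, 3012 and 2979 in knockout at its 1 tested probe set, 1424088_at. Its mean was 4181 ± 347 in wild type and 2791 ± 355 in knockout (SD, n = 3), with a log2 change of -0.59 (SE 0.13). Its dim probe set 1430729_at, not tested, had a log2 change of -0.48. Gpd1, the cytosolic glycerol-3-phosphate dehydrogenase, read 7007, 6713 and 6074 against 9187, 8266 and 8158 at 1416204_at (log2 change 0.37, SE 0.09). Its equally bright 1448249_at read 7480, 7243 and 6781 against 8303, 8550 and 6854, with overlap and a log2 change of 0.13 (SE 0.10). The dim 1439396_x_at of Gpd1 read 67.6, 205 and 910 against 1132, 777 and 1105, also with overlap (log2 change 1.97, SE 0.68). The wild-type mean of this probe set lay under the filter.

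Cers5, a ceramide synthase, had its separated probe set at the dim 1447308_at, which read 313, 191 and 144 in wild type and 387, 787 and 893 in knockout (log2 change 1.58, SE 0.44). Its wild-type mean lay under the filter. The bright probe set of Cers5, 1451209_at, read 6358, 6968 and 6295 against 6505, 6900 and 6959, a log2 change of 0.05 (SE 0.09). Pfkm, the muscle-type phosphofructokinase, read 36788, 35077 and 37189 against 36984, 31778 and 31131, with overlap (log2 change -0.13, SE 0.08). The remaining enzymes overlapped as well: Prkag1, a gamma subunit of AMP-activated kinase (-0.38 and -0.08), Csad of taurine synthesis (0.08) and Galnt6, which starts mucin-type O-glycans (-0.68, SE 0.34). Galnt6 read 906, 777 and 949 in wild type and 394, 928 and 427 in knockout, so that knockout replicate 2 lay among the wild-type values.

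Of the 9 members that act in transcription elongation, splicing or RNA binding, 5 had a change below 0 and 4 above (median -0.007). Among their 19 tested probe sets, 1 was lower and 1 higher without overlap, where 4.91% and 4.97% of all tested probe sets were. Tarbp2, the Dicer partner TRBP, had the most negative change of all tested member probe sets, -1.14 (SE 0.61) at the dim 1438952_x_at, where the arrays read 650, 510 and 652 in wild type and 490, 69.9 and 484 in knockout. That value rests on knockout replicate 2: leaving out 1 array gave -1.57 to -0.29, the latter without that array. Its brighter probe set 1423616_at had a change of -0.07. Larp4, a poly(A)-binding factor that stabilises mRNA, lay higher by a small and even amount at its brightest probe set, 3408, 3380 and 3369 against 3665, 3601 and 3820 (log2 change 0.13, SE 0.11). Its probe sets 1437177_at and 1455102_at had changes of 0.21 and 0.055, both with overlap. The poly(C)-binding protein gene Pcbp2 read 27432, 26278 and 26747 against 26589, 28888 and 29937, with overlap. Eif4b, a translation initiation factor, had like changes at its 3 probe sets, -0.14, -0.13 and -0.12, with overlap at each. Ccnt1, the cyclin of P-TEFb, the spliceosomal genes Ddx23 and Prpf40b, Hnrnpa1 and Spats2 had changes of -0.11 to 0.27 over their tested probe sets.

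The alpha-tubulin gene Tuba1a, the main alpha-tubulin of developing neurons, was among the brightest probe sets of the array, at the 99.8 percentile. It read 95923, 96354 and 103344 in wild type and 103648, 98016 and 109689 in knockout, which overlap (log2 change 0.07, SE 0.07). Its probe set, 1418884_x_at, is of the kind that can share sequence with other transcripts, so closely related tubulins may add to it. The tubulin genes Tuba1b and Tuba1c could not be read on their own. Pfdn5, a prefoldin subunit that hands unfolded tubulin and actin to the chaperonin, had changes of -0.06 at both of its bright probe sets. Rpap3, a cochaperone for assembling large complexes, had a change of -0.28 and Fkbp11, a prolyl isomerase of the secretory pathway, one of 0.13, both with overlap. Among the 5 tested probe sets of these tubulins and folding factors, 0 were lower and 0 higher without overlap. Over all tested probe sets, 4.91% and 4.97% were.

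The 13 members in signalling, cytoskeleton and trafficking had 5 changes below 0 and 8 above (median 0.03). Among their 25 tested probe sets, 2 were lower and 2 higher without overlap, where 4.91% and 4.97% of all tested probe sets were. Senp1, a SUMO protease, had 1 higher and 1 lower probe set. At 1451319_at it read 690, 711 and 933 in wild type and 1096, 1226 and 1141 in knockout (log2 change 0.57, SE 0.22). At 1428925_at it read 585, 498 and 383 against 254, 379 and 334 (log2 change -0.57, SE 0.36), and the highest knockout value lay just under the lowest wild-type one. Lima1, an actin-bundling protein gene, was higher at its brightest probe set 1450629_at, with 726, 1000 and 942 against 1071, 1037 and 1377 (log2 change 0.38, SE 0.23), while its other 3 had changes of -0.50, -0.46 and -0.005. Leaving out 1 array gave 0.24 to 0.47 at 1450629_at, the former without wild-type replicate 1. Arf3, a Golgi GTPase, was lower at 1421789_s_at (16756, 16529 and 15478 against 15198, 12261 and 11066; log2 change -0.35, SE 0.11), and its 3 other tested probe sets had changes of -0.17 to -0.05 with overlap.

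The other 10 signalling members had no separated probe set among 15 tested. Over all tested probe sets, 4.91% were lower and 4.97% higher without overlap. The changes of these 10 members ran from -0.40 to 0.76. Ddn, the postsynaptic protein dendrin, read 62203, 62003 and 67180 in wild type and 68550, 64758 and 62337 in knockout, which interleave (log2 change 0.03, SE 0.07). Rapgef3, the cAMP-activated exchange factor Epac1, had changes of -0.40, -0.40, -0.12 and 0.76 at its 4 tested probe sets. Racgap1, a cytokinesis regulator, had a change of 0.75 with overlapping and widely spread arrays (621, 624 and 242 against 1146, 919 and 450). Map3k12, the axonal stress kinase DLK, had changes of -0.02 at its bright and 0.55 at its dim probe set. Changes of the rest (Rnd1, Copz1, Asb8, Aaas, Dip2b and Dazap2) lay between -0.03 and 0.13.

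**Figure D2:**
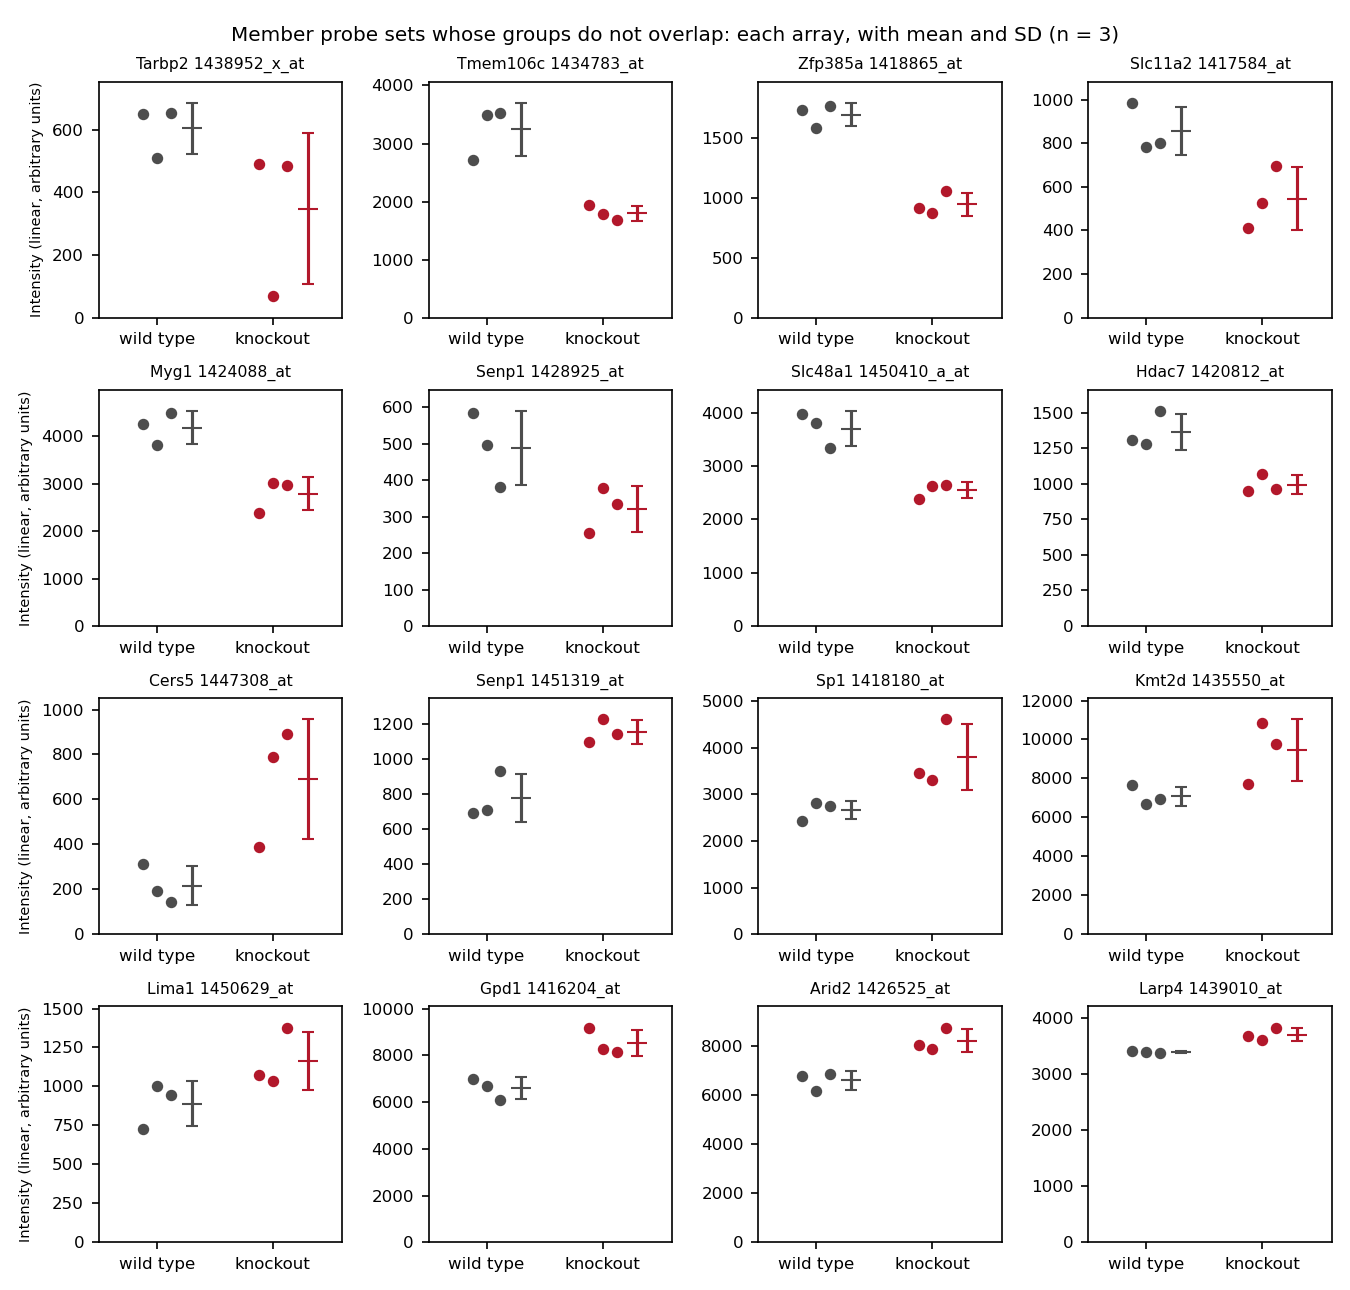
Intensity (linear scale, arbitrary units, axis from 0) of each array for 16 member probe sets without overlap, the most changed one of each of 8 lower and 8 higher members. Points are arrays in the order of replicate number, and the bar beside them is the mean with SD (n = 3 per group); Tmem106c, Zfp385a and Myg1 show a wide gap between the groups, whereas the gap of Senp1 1428925_at and Kmt2d is narrow and Tarbp2 rests on 1 low array.

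Of the 29 probe sets left out for low values, 4 separated the groups, 3 lower and 1 higher, and they are given only as values. How many of all left-out probe sets on the array did so was not counted. These 4 can therefore not be set against a share. Rapgef3 1437946_x_at read 477, 742 and 332 in wild type and 85.8, 85.3 and 83.1 in knockout. Arf3 1456007_at read 387, 295 and 529 against 180, 128 and 64.4. Slc4a8 1456519_at read 161, 217 and 314 against 102, 13.8 and 63.0. Pfdn5 1422297_at, at 78.2, 50.6 and 18.5 against 209, 127 and 303, was the one higher in knockout. In each case brighter tested probe sets of the same gene did not separate in that way, except Arf3 1421789_s_at.

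Agreement between the probe sets of a gene could be read for 29 members, and 27 had 1 tested probe set. In 13 of the 29 all tested probe sets had a change below 0 (44.8%, where 22.5% of 6208 genes with several did), in 4 all had one above 0 (13.8%, where 22.8% did), and in 12 the signs were mixed (41.4%, against 54.7% over all such genes). In 2 members, Slc11a2 and Tmem106c, every tested probe set was lower without overlap (6.90%, where 0.338% of such genes were); in 0 every one was higher (0.258% over all). The 13 with all changes below 0 also hold genes with small changes, such as Kansl2, Ccnt1, Eif4b and Pfdn5. The median spread between the lowest and highest change of a gene was 0.30 in the members and 0.22 over all such genes.

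Each further probe set was then set against the brightest of its gene within each array, which removes what both share on that array. Of 47 such ratios in the members, 8 did not overlap between the groups (17.0%, where 9.43% of 10652 ratios over all genes did not), and 0 passed a limma adjusted p of 0.05, where 0% of all did. The log2 ratio of Tmem106c 1434783_at over 1434784_s_at was -0.74, -0.52 and -0.42 in wild type and -1.01, -1.21 and -1.33 in knockout. It differed by -0.63 (SE 0.14), so the 2 probe sets of Tmem106c disagreed in size though not in sign. For Slc48a1 the log2 ratio was -1.66, -1.52 and -1.69 against -2.52, -2.15 and -2.13 (difference -0.64, SE 0.16). For Senp1 it was -0.23, -0.50 and -1.25 against -2.04, -1.65 and -1.72 (difference -1.14, SE 0.27), and for Lima1 -0.51, -0.24 and 0.24 against -0.94, -1.10 and -1.10 (difference -0.88, SE 0.20).

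The 4 other ratios without overlap were higher in knockout, those of Cers5, Rapgef3, Sp1 and Gpd1. The log2 ratio of Cers5 1447308_at over 1451209_at was -4.28, -5.08 and -5.30 in wild type and -4.02, -3.11 and -2.94 in knockout (difference 1.53, SE 0.39). That of Rapgef3 1438590_at over 1424471_at was -2.28, -2.15 and -2.22 against -1.84, -0.84 and -0.49 (difference 1.16, SE 0.33). For Sp1 1418180_at over 1454852_at the log2 ratio was -0.36, -0.32 and -0.13 against 0.29, 0.19 and 0.16 (difference 0.48, SE 0.11). For Gpd1 1416204_at over 1448249_at it was -0.09, -0.11 and -0.16 against 0.15, -0.05 and 0.25 (difference 0.24, SE 0.12), with a narrow gap. The largest difference, 1.83 (SE 0.85) for the dim Gpd1 1439396_x_at, came with overlapping groups, as did that of Tarbp2 (-1.07, SE 0.75). The wild-type mean of the former and the knockout mean of the latter lay under the filter, so each was tested only because the other group was brighter. The same holds within the 8 ratios without overlap for Cers5 1447308_at (wild-type mean under the filter) and Senp1 1428925_at (knockout mean under it). The 3 probe sets of Slc11a2 had changes within 0.14 of each other, and those of 7 members lay closer still, from Pfdn5 (0.00092) to Faim2 (0.091). Whether sequence differences under the probes take part in these disagreements was not tested.

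**Figure D3:**
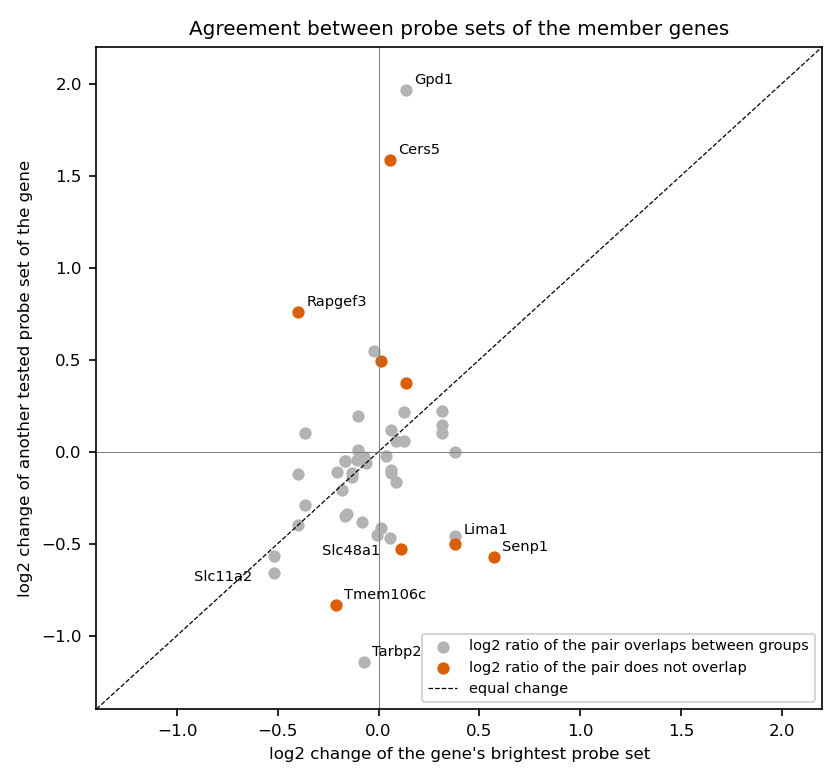
Log2 change of each further tested probe set against that of the brightest probe set of the same member gene (47 pairs, 29 genes); the dashed line marks equal change. Orange points are the 8 pairs whose within-array log2 ratio does not overlap between groups. Of these, Senp1, Lima1, Rapgef3 and Slc48a1 lie in quadrants of opposite sign. Slc11a2 lies near the line.

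**Figure D4:**
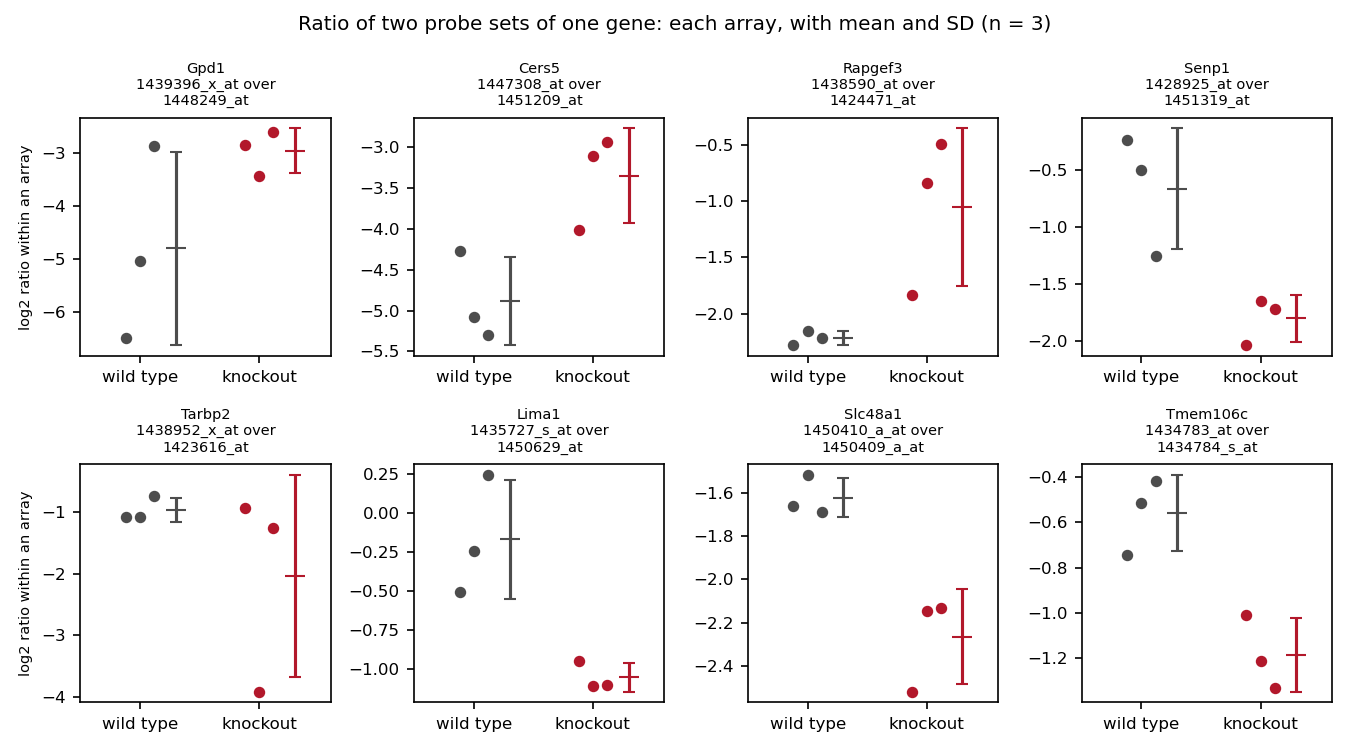
Within-array log2 ratio of a probe set over the brightest probe set of its gene for the 8 members with the largest difference between groups. Points are arrays and the bar is the mean with SD (n = 3 per group); the groups are apart in 6 panels, and overlap for Gpd1 and Tarbp2.

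Along the chromosome, members with a separated probe set lay next to members without one. From Slc48a1 through Hdac7 and Tmem106c to Senp1, at 95 to 92 measured genes from Ppp1r1a, 4 successive genes each had a lower probe set. By the brightest probe set their changes were, in that order, 0.11, -0.0099, -0.21 and 0.57. There only Tmem106c was lower without overlap, and Senp1 was higher. The next 2, Pfkm and Asb8, had none. From Gpd1 through Cers5 and Lima1 to Larp4, at 61 to 58 measured genes, 4 successive genes each had a higher one. By the brightest probe set their changes were 0.13, 0.05, 0.38 and 0.13, with overlap for Gpd1 and Cers5. Slc11a2, 54 genes away, was lower at all 3 of its tested probe sets. At the Ppp1r1a end, Zfp385a (3 genes away) was lower, while Copz1 (4 genes), Hnrnpa1 (5) and Cbx5 (6) overlapped. Myg1, 19 genes away, is flanked by Pfdn5 and Aaas, with changes of -0.06 and 0.13. These runs count a gene by any of its tested probe sets and were noticed after the values were seen. Over all tested probe sets, 4.91% were lower and 4.97% higher without overlap. How often such runs occur over all genes was not counted.

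The stretch held 45 other tested genes between Slc38a1 and Ppp1r1a, beside 55 members. Of their 62 probe sets, 6 were lower without overlap (9.68%, where 4.91% of all tested probe sets were) and 2 higher (3.23%, where 4.97% were). The median log2 change by the brightest probe set was -0.09, against 0.00029 over all genes. Those lower include a probe set each of Pou6f1 and Smarcd1, given below. Slc38a1, at the far end of the named stretch, and Pou6f1 were the genes called by limma in the whole table beside Ppp1r1a, and no member was. Slc38a1, a glutamine transporter, read 7647, 8115 and 7736 in wild type against 3412, 3467 and 2857 at 1415903_at (log2 change -1.27, SE 0.11), while its brighter 1454764_s_at had a change of 0.19 with overlap. Pou6f1 1452844_at read 11724, 11810 and 13190 in wild type and 6347, 6220 and 5804 in knockout. The dim 1420749_a_at of Pou6f1 read 632, 566 and 487 against 495, 498 and 503, with overlap (log2 change -0.16, SE 0.29). The members on either side of Pou6f1, Tfcp2 and Dazap2, had changes of 0.23 and -0.01 with overlap. Smarcd1, a chromatin remodelling subunit, read 4390, 3705 and 4794 against 2582, 2406 and 2338. Its neighbours Asic1 and Gpd1 had changes of -0.11 and, by the brightest probe set, 0.13. Beyond these, the uncharacterised 1700120C14Rik was lower at its only tested probe set (-0.60, SE 0.34). A dim probe set of Grasp was higher (0.75, SE 0.30), whose brightest one had a change of -0.16.

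Promoter sequence is shown for the lower members that had all tested probe sets separated and an entry in the sequence table, to set the letters beside the values above. The 250 bases before the RefSeq start (GRCm38.p6) are given 5' to 3' on the gene's strand, with matches to the GC box GGGCGG, read on either strand, in capitals. For Tmem106c the window is chr15:97963979-97964228 (plus strand), for Myg1 chr15:102331459-102331708 (plus strand), and for Zfp385a, which has 2 starts in the table, the one shown is that of the start farther upstream, chr15:103340087-103340336 (minus strand).
Tmem106c: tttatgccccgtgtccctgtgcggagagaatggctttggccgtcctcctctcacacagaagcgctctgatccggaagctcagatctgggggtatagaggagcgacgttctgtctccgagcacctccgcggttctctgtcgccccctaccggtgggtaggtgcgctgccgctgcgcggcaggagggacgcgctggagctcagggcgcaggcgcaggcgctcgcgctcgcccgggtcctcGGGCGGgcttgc
Myg1: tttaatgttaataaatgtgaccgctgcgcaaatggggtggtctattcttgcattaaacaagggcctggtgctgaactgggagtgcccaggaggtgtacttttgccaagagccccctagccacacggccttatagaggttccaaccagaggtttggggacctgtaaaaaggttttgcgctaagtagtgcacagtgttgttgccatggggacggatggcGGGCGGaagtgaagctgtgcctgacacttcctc
Zfp385a: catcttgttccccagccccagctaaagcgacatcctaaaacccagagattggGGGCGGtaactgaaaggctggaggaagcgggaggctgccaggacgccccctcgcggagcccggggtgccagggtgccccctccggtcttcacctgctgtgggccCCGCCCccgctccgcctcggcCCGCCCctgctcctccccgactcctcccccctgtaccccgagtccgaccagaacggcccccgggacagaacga

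The windows of Tmem106c and Myg1 hold 1 GC box each and the one shown of Zfp385a holds 3, while that of its other start, chr15:103334339-103334588, holds 1. Of the 70 windows of the 51 members in the table, 64.3% hold a GC box, as do 56.5% of the 13086 windows of genes with a tested probe set and 32.7% of all 32851 windows. The cAMP response element TGACGTCA, to which factors of the Atf1 and Atf7 family bind, was found in 0 of the 70 member windows, in 2.50% of those of tested genes and in 1.55% of all. Its half-site TGACG, which lies within it, was in 27.1%, 25.9% and 17.8%. A match describes only the letters of this window. The sequences are those of the reference strain in RefSeq, and those of the mice in this study were not analysed here.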

How the data were processed

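Hippocampal RNA was measured on 6 one-colour arrays. The deposited table holds linear intensity values per probe set, which the values show to have the same trimmed mean (highest and lowest 2% left out) on each array. Which software made it is not given in the labels. Probe sets were named from the platform annotation, and genes were ordered by RefSeq (GRCm38.p6). Values were taken as log2(intensity + 16). The 64 control probe sets and the 40% of the others with the lowest mean were left out. Knockout was compared with wild type by limma 3.58.1 in R 4.3.3 (group as the only term, two-sided, variances moderated with a trend on intensity), with Benjamini-Hochberg adjustment over all 27022 tested probe sets; the same fit was run on log2 ratios between the probe sets of a gene. The fit was tested on simulated data. Member genes and lists were chosen with earlier results of these data known, so member differences are given without p-values. Values in every array are given for the members with the 8 largest downward and the 8 largest upward changes without overlap, the 8 largest disagreements between probe sets, the alpha-tubulins and the brightest member of each role group. Other probe sets named were chosen after their values were seen. The alternatives changed the pseudocount, the filter, the scaling, the variance model, the array weights, the replicate block, the arrays kept or the probe sets used. The number of arrays limits the precision.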

Additional observations from a re-analysis of the deposited data

How the results depend on the processing

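The arrays carry the same replicate numbers in both groups, but no label pairs them, and deviations of same-numbered arrays correlated at 0.24, 0.05 and 0.10. Between arrays of different number these correlations ran from -0.16 to 0.11. Whether the arrays are paired was not tested. With the replicate block the fit called 7 probe sets higher over the whole table, none of them a member, where 0 were called without it. Member probe sets called were 0 under every alternative run. Causes of the changes below were not tested. Without an intensity trend 1 probe set was called lower, against 3. With no filter on low values 13 member ratios did not overlap, against 8. With the lowest 60% left out, 5 member probe sets and 3 member genes were higher without overlap, and 4 ratios did not overlap; fewer probe sets are tested there. Median scaling of each array gave 3 member genes higher without overlap, against 5, as did averaging the probe sets of a gene. Without sets ending in _x_at, _s_at or _a_at, 8 member probe sets were lower without overlap, against 13, and 5 ratios did not overlap. Leaving out 1 array, member probe sets without overlap ran from 18 to 23 lower and 9 to 13 higher, member genes from 5 to 11 lower and 7 to 8 higher, member ratios from 10 to 16, and calls over the whole table from 3 to 4 lower and 0 to 2 higher. Lower member probe sets, 13 with all arrays, were 23 without knockout replicate 1, 22 without knockout replicate 2 and 21 without wild type replicate 3; higher ones, 8 with all arrays, were 13 without either of the latter. Lower member genes, 5 with all arrays, were 10, 10 and 11 in that order and 9 without wild type replicate 2; higher ones, 5 with all arrays, were 8 without knockout replicate 2 or any 1 wild-type array. Ratios without overlap were 16, 15 and 14 in the same order, and 13 without wild type replicate 2. The 2 higher calls came without knockout replicate 1. With 2 arrays in a group, non-overlap is easier to reach by construction. The shares over all tested probe sets, genes and ratios were not counted under these alternatives, nor that over all genes with all arrays. These counts are therefore not read as a result about the members. All 342 values of named probe sets moved by less than 1 SD, 3 of them changing sign, near 0. That bound is no measure of stability. Leaving out 1 of 3 arrays cannot move a group mean by 1 SD of that group. The fit without an intensity trend and that with the replicate block leave each log2 change as it was. Tarbp2 1438952_x_at still went from -1.14 to -0.29 without knockout replicate 2. The median SE was 0.16 over member probe sets, from 0.065 to 0.68.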
